A study of Homo sapiens with 6 samples.

Results

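The cytosolic ribosomal proteins are the protein parts of the ribosome outside mitochondria, and their messenger RNAs were followed here in cultured breast cancer cells. The genes were taken by symbol: protein-coding rows named RPL or RPS with a number, RPLP0, RPLP1, RPLP2 and RPSA, without the RPS6K kinases, the RPL7L row and the genes on chromosome Y. Of 58735 rows in the count table, 101 matched the name pattern and 88 remained after 10 RPS6K, 1 RPL7L and 2 chromosome Y rows were set aside. They comprised 77 core genes (46 of the large and 31 of the small subunit), 7 paralogs (6 large, 1 small), 3 read-through rows that join a ribosomal protein gene to its neighbour, and RPS19BP1, a protein that binds RPS19 and belongs to neither subunit. The naming rule reads symbols and annotation, not levels.

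RNA came from T47D, an established luminal cell line derived from human breast cancer, in 3 exposed libraries (titles coded CQ) and 3 control libraries (CK), which the design text describes as biological replicates of an experimental treatment and its control. That the treatment was fine airborne particulate matter (PM2.5) rests on the title of the series and on a protocol placing extraction at 48 h of PM2.5 exposure, a text that stands unaltered on the control samples too. Dose and control vehicle were not given in the sources used here, and nothing says that the replicates were separate cultures, so p-values measure the spread between these libraries, which may be technical. No genetic change to the cells is named in the labels.

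Each ribosome has a large subunit, which joins amino acids, and a small subunit, which reads the messenger RNA, and each carries its own set of proteins built into it in near equal numbers. Messenger RNAs of ribosomal proteins typically begin with a C followed by an unbroken run of pyrimidines, the terminal oligopyrimidine (TOP) tract, through which mTORC1 and the binding protein LARP1 control their translation and stability. Free RPL5 and RPL11 can also bind MDM2 and so raise p53.

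The start-site windows of 7 members are shown because they belong to the genes that moved most, or to a paralog pair with unlike values, and hold a pyrimidine run at or near the annotated start. Sequences are from RefSeq on GRCh38.p14, 50 bases before to 20 bases from the annotated start onward, 5′ to 3′ on the gene's own strand. Capitals mark the C and the further C or T bases, at least 5 in all, of the longest run that reaches within 10 bases of the start. Shorter runs there stay in lower case. The run takes in the annotated first base in RPL12, RPL27A, RPS18, RPL22L1 and RPL22, and begins 3 bases after it in RPL10A and 6 bases after it in RPS26. RPL12 lies at chr9:127451387-127451456 on the minus strand, RPL10A at chr6:35468351-35468420 on the plus strand and RPL27A at chr11:8682742-8682811 on the plus strand. RPS18 lies at chr6:33272025-33272094 on the plus strand, RPL22L1 at chr3:170870176-170870245 on the minus strand, RPL22 at chr1:6199576-6199645 on the minus strand and RPS26 at chr12:56041868-56041937 on the plus strand.
RPL12: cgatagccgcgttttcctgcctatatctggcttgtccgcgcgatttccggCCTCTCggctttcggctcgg
RPL10A: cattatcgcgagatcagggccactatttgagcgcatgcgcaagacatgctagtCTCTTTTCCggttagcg
RPL27A: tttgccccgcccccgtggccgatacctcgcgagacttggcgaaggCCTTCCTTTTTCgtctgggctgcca
RPS18: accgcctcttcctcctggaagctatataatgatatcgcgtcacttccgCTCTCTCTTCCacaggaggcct
RPL22L1: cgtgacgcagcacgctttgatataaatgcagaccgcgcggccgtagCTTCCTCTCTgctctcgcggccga
RPL22: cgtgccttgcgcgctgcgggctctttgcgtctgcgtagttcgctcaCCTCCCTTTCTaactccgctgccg
RPS26: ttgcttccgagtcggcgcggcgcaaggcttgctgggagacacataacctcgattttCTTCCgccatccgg

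Total counts ran from 30970218 to 36878525 in exposed libraries and from 34696540 to 36024874 in control libraries. CYP1A1, a detoxifying enzyme induced through the aryl hydrocarbon receptor, averaged 2122 ± 95.9 CPM in exposed and 1.58 ± 0.33 CPM in control libraries (SD, n = 3 each). CPM are counts scaled to library size. All 9 luminal epithelial markers examined were tested, among them KRT8, KRT18, KRT19, GATA3 and EPCAM; 6 were lower in exposed libraries, with a median log2 fold change of -1.06 over the 9. Of the markers of other cells, PTPRC, CD68, CD3E, PECAM1, VWF, KRT5, KRT14, TP63 and DCN were too low to be tested. COL1A1 averaged 69.8 CPM in exposed and 61.6 CPM in control libraries, and COL1A2, the 1 of 4 tested fibroblast markers that rose, averaged 1.17 CPM in exposed and 0.598 CPM in control libraries.

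One feature of the libraries bears on every value that follows. Against the mean of the controls, the median core gene stood at log2 0.28 in exposed replicate 1, 0.06 in exposed replicate 2 and 0.22 in exposed replicate 3, compared with -0.09, 0.12 and -0.02 in control replicates 1 to 3. Exposed replicate 2 was therefore under control replicate 2. It was the lowest exposed library for 73 of 77 core genes, where it was the lowest for 33.5% of all 17337 genes tested, and control replicate 2 was the highest control for 70 of 77, against 37.9% of all genes. The same order held in both subunits, and its source was not tested.

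**Figure D1:**
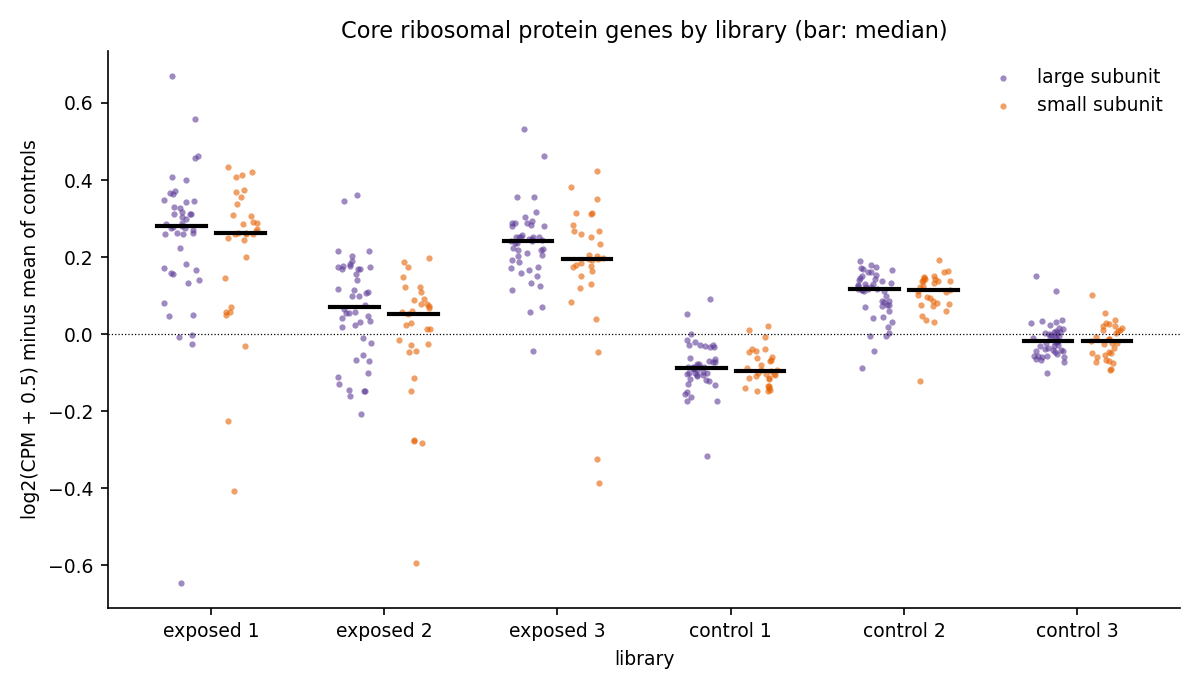
Each point is 1 core ribosomal protein gene in 1 library, as log2(CPM + 0.5) minus the mean of the controls, with the large subunit (46 genes) and small subunit (31 genes) side by side and a bar at each median. The medians over all core genes were 0.28, 0.06 and 0.22 in exposed replicates 1 to 3 and -0.09, 0.12 and -0.02 in control replicates 1 to 3.

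More ribosomal protein messenger RNAs rose than fell in exposed cells, the largest rise being 1.43-fold (RPL12), and most did not pass the test. At a Benjamini-Hochberg adjusted p under 0.05 in the quasi-likelihood test of edgeR, fitted over 17337 genes, 33 of 85 tested members rose (38.8%) and 3 fell, while 21.8% of all genes tested rose and 22.1% fell. Called in either direction were 36 members (42.4%), near the 43.9% of all genes that were called in either direction. The remaining 49 did not pass, and the 3 read-through rows (RPL17-C18orf32, RPL36A-HNRNPH2 and RPS10-NUDT3) were listed at 0 counts in all 6 libraries. The log2 fold change was positive for 75 of 85 members, with a median of 0.18, where the median of all genes tested was -0.02. The 2 groups did not overlap for 26 of 85 members that were higher and 3 of 85 that were lower. Among all 17337 genes tested these were 4414 (25.5%) and 4588 (26.5%).

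The number of members called higher depended on single libraries. It was 51 without exposed replicate 2 and 54 without control replicate 2, but 12 without exposed replicate 1, 18 without exposed replicate 3, 10 without control replicate 1 and 11 without control replicate 3, whereas the share of all genes that rose was 19.9%, 21.6%, 19.7%, 19.6%, 19.4% and 17.8% in those 6 fits. Members called lower numbered 1 to 4 in them, where 19.4%, 21.2%, 18.8%, 18.4%, 18.8% and 17.4% of all genes fell. Upper-quartile factors left 15 members higher (19.2% of all genes), a 1.2-fold minimum 15 (19.6%) and a length correction 50 (25.9%), while DESeq2 called 42 (19.6%). RPL12, RPL10A, RPL22L1, RPL27A, RPL10, RPS18, RPS12 and RPS9 were the 8 of 33 that passed in all 18 planned refits, each single library left out among them. CPM values are shares of a library, and in bulk RNA a change in the number of cells and a change in RNA per cell cannot be told apart.

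**Figure D2:**
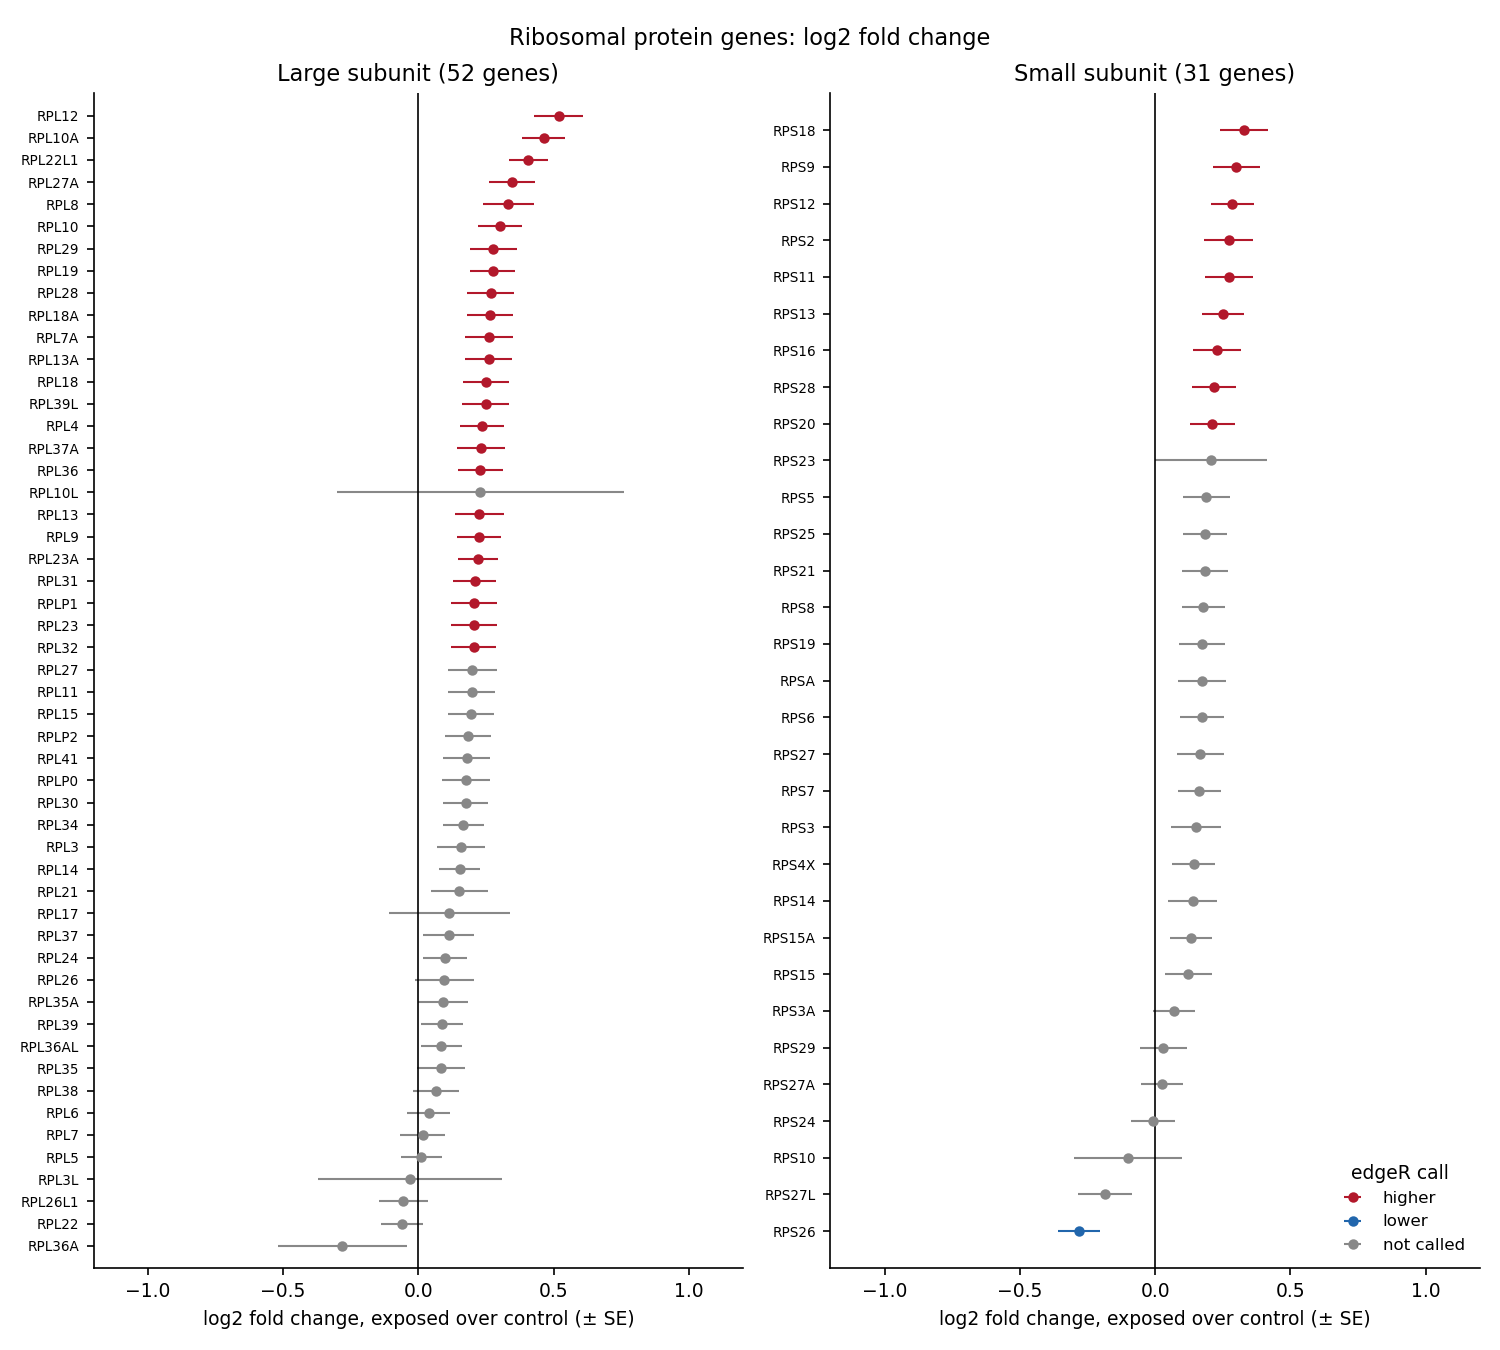
The log2 fold change of each tested member, exposed over control, with its SE, is drawn for the large subunit (52 genes, left) and 31 of 32 genes of the small subunit (right); colours give the edgeR call. In the large subunit 24 rose and 0 fell, and of the small subunit genes drawn 9 rose and RPS26 fell.

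In the large subunit 24 of 52 genes rose (46.2%) and none fell, with a median log2 fold change of 0.20. An unadjusted edgeR p under 0.05 was found for 30 of the 52, and for 8778 of all 17337 genes tested. Among all genes tested 21.8% rose and 22.1% fell. The largest rise in the subunit was that of RPL12, which sits at the base of the stalk that recruits elongation factors. RPL12 had 2273, 1815 and 2065 CPM in exposed replicates 1 to 3 and 1317, 1555 and 1425 CPM in control replicates 1 to 3. All exposed libraries were above all controls, and the log2 fold change was 0.52 ± 0.09 (SE; adjusted p = 1.7e-05). RPL10A, which forms the protein of the L1 stalk beside the exit site for transfer RNA, had 1407, 1227 and 1316 CPM in exposed and 933, 1006 and 927 CPM in control libraries. Its groups did not overlap either, and it rose by a log2 fold change of 0.46 ± 0.08 (adjusted p = 2.1e-05).

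The remainder of the stalk was called in part. RPLP0, which carries the acidic stalk proteins, had 5991, 5417 and 5576 CPM in exposed and 4641, 5410 and 4972 CPM in control libraries, with a log2 fold change of 0.18 ± 0.09 and an adjusted p of 0.11. RPLP1, an acidic stalk protein, averaged 1514 ± 105 CPM in exposed and 1313 ± 112 CPM in control libraries and passed at an adjusted p of 0.048, a call lost in 8 of 18 planned refits. Its partner RPLP2 averaged 647 ± 53.9 CPM in exposed and 570 ± 62.7 CPM in control libraries (adjusted p = 0.081). The 3 stalk proteins thus had log2 fold changes of 0.18 to 0.21, close to the median of their subunit.

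Among the proteins near the site of peptide bond formation, RPL10, whose loading is a late step of large subunit assembly, had 873, 768 and 810 CPM in exposed and 630, 723 and 636 CPM in control libraries. The groups did not overlap, and RPL10 rose by a log2 fold change of 0.30 ± 0.08 (adjusted p = 0.0029). Other rows cover 55.5% of its exonic bases on either strand and 2.80% on its own strand. The strand setting of the counts was not given, and the part of shared reads was not tested. RPL8 had 5594, 4644 and 5214 CPM in exposed and 3858, 4615 and 3799 CPM in control libraries. It rose by 0.33 ± 0.09 (adjusted p = 0.0047), and its adjusted p was 0.055 without control replicate 3. RPL27A, a structural protein, had 1156, 975 and 1074 CPM in exposed and 795, 921 and 807 CPM in control libraries, without overlap, and a log2 fold change of 0.35 ± 0.08 (adjusted p = 0.0012). RPL19, RPL29 and RPL7A rose by log2 values of 0.27, 0.28 and 0.26, calls lost in 1, 2 and 5 of 18 planned refits.

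RPL5 and RPL11, which bind MDM2 when free, were not called. RPL5 had 601, 526 and 592 CPM in exposed and 561, 581 and 564 CPM in control libraries, so the control values lay within the exposed range. Its log2 fold change was 0.01 ± 0.08 (adjusted p = 0.92). RPL11 averaged 692 ± 72.6 CPM in exposed and 604 ± 60.5 CPM in control libraries, with a log2 fold change of 0.20 ± 0.09 and an adjusted p of 0.063. RPL22, RPL26L1, RPL36A and RPL3L were the large subunit genes with negative log2 fold changes, and none of them passed.

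**Figure D3:**
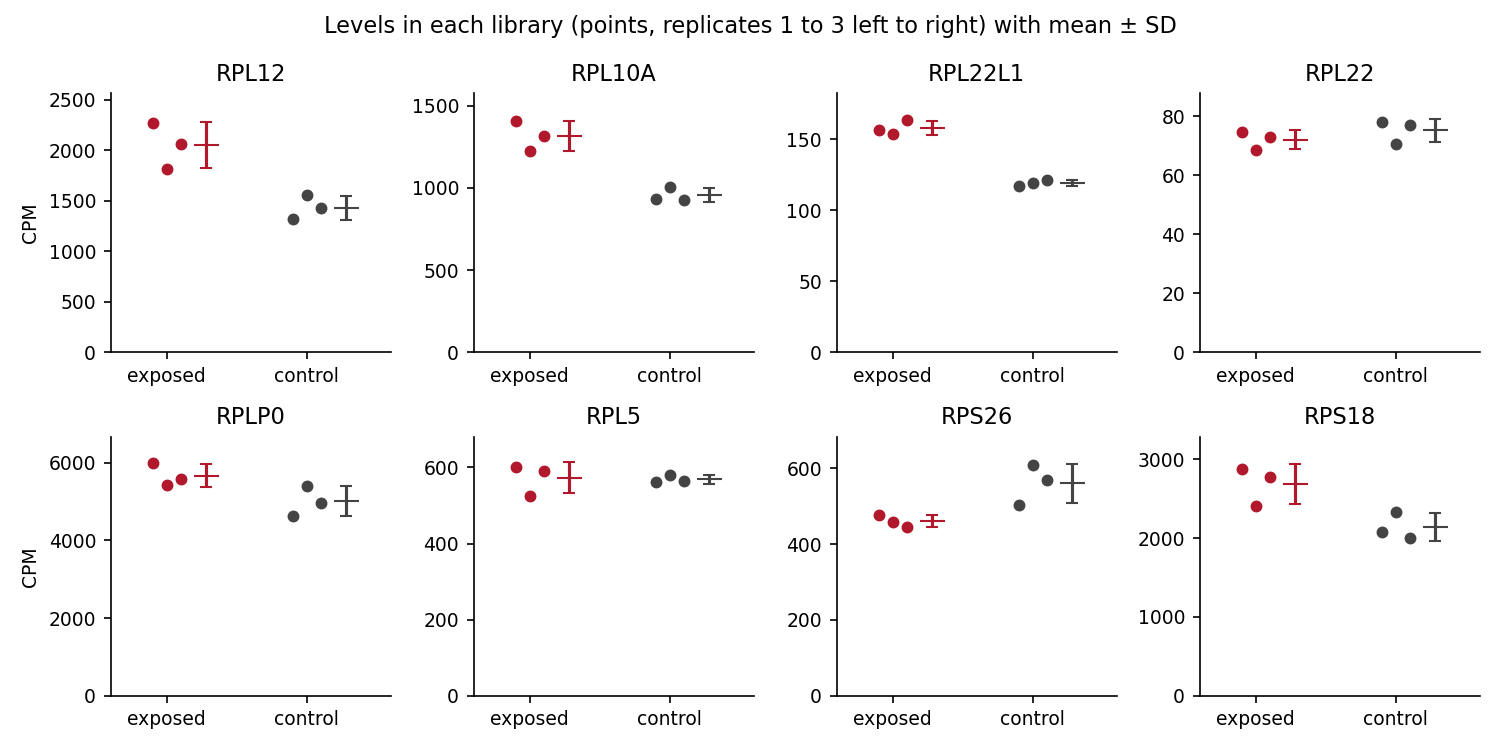
CPM on a linear axis from 0 in each exposed (left) and control (right) library, with mean ± SD, for 8 members. RPL12, RPL10A, RPL22L1 and RPS18 were higher without overlap, RPS26 lower without overlap, and RPL22 and RPL5 overlapped; RPLP0 did not overlap but missed the threshold.

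In the small subunit 9 of 32 genes rose (28.1%) and 2 fell, with a median log2 fold change of 0.17. Among all genes tested 21.8% rose and 22.1% fell. An unadjusted edgeR p under 0.05 was found for 17 of the 32, and for 8778 of all 17337 genes tested. RPS18, a protein of the head near the large subunit, had 2879, 2405 and 2777 CPM in exposed and 2077, 2337 and 1998 CPM in control libraries, and rose by a log2 fold change of 0.33 ± 0.09 (adjusted p = 0.003). RPS9, at the channel where messenger RNA enters, had 1839, 1494 and 1752 CPM in exposed and 1332, 1485 and 1311 CPM in control libraries, and rose by 0.30 ± 0.09 (adjusted p = 0.0055). In both genes the lowest exposed library stood just above the highest control. RPS12, a protein of the beak of the head, had 742, 660 and 719 CPM in exposed and 542, 625 and 575 CPM in control libraries, and rose by 0.28 ± 0.08 (adjusted p = 0.0041). RPS2, next to RPS9 at the entry channel, rose by 0.27 ± 0.09 (adjusted p = 0.015), a call lost in 5 of 18 planned refits. RPS3, at the same channel, had a log2 fold change of 0.15 ± 0.09 (adjusted p = 0.19).

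RPS26 fell against the direction of most of its subunit. RPS26, which lines the channel where messenger RNA leaves, had 477, 459 and 446 CPM in exposed and 504, 608 and 569 CPM in control libraries. RPS26 fell by 0.28 on the log2 scale (SE 0.08, adjusted p = 0.0044), with an adjusted p of 0.056 without exposed replicate 3, and none of its exonic bases lie under another row.

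Several small subunit genes known outside the ribosome were not called. RPS6, the substrate of S6 kinase, averaged 928 ± 61.9 CPM in exposed and 823 ± 61.2 CPM in control libraries (log2 fold change 0.17, adjusted p = 0.086). RPS19, the gene most often mutated in Diamond-Blackfan anemia, had a log2 fold change of 0.17 (adjusted p = 0.11), as did RPSA, also described as a laminin receptor (0.17, adjusted p = 0.11). RPS4X, the X-linked form of RPS4, had 0.14 (adjusted p = 0.15). RPS19BP1 had 82.8, 79.9 and 76.9 CPM in exposed and 87.9, 103 and 94.9 CPM in control libraries. It fell by 0.26 on the log2 scale (adjusted p = 0.0086), without overlap, and its adjusted p was 0.078 without exposed replicate 3.

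Both subunits were higher when their genes were summed, the large one slightly more. Large subunit genes summed to 71749, 62164 and 68530 CPM in exposed and 54253, 62796 and 56858 CPM in control libraries, a ratio of means of 1.16. Small subunit genes summed to 39039, 33363 and 37258 CPM in exposed and 29972, 34898 and 31375 CPM in control libraries, a ratio of 1.14. In both sums exposed replicate 2 stood below control replicate 2, so the groups overlapped, and on raw library totals the ratios were 1.11 and 1.08. All 88 members together took 10.5%, 9.56% and 10.4% of counts in exposed and 8.73%, 9.79% and 9.15% in control libraries.

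The sum of the large subunit over that of the small subunit did not overlap between groups: it was 1.84, 1.86 and 1.84 in exposed and 1.81, 1.80 and 1.81 in control libraries. The difference of 0.0396 was 0.0214 when RPL12, RPL10A and RPL22L1 were left out and 0.0748 when the 5 largest rises of each subunit were left out, both choices made after seeing the data. No p is given for a sum over chosen genes. That more large than small subunit genes passed (24 of 52 against 9 of 32) was not tested as a difference.

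Members were also compared with one another. When the libraries were scaled to the geometric mean of the core genes, a scaling added after seeing the data, the median of all genes tested moved to -0.18 and the subunit medians to 0.035 and 0.012, and the split of member calls became 6 higher and 4 lower in place of 33 and 3. In that scaling 10.6% of all genes rose and 28.2% fell. RPL12, RPL10A, RPL22L1, RPL27A, RPL8 and RPS18 rose relative to the core set, by log2 values of 0.36, 0.30, 0.24, 0.18, 0.17 and 0.17. RPS26, RPS19BP1 and RPS27L fell by 0.44, 0.41 and 0.36.

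RPL22 and its paralog RPL22L1, which can take the same place in the large subunit, had unlike values. In mouse, Rpl22 protein is known to hold down Rpl22l1 expression. RPL22L1 had 156, 154 and 163 CPM in exposed and 117, 119 and 121 CPM in control libraries, and rose by a log2 fold change of 0.41 ± 0.07 (adjusted p = 2.4e-05). RPL22 had 74.7, 68.7 and 72.9 CPM in exposed and 77.9, 70.6 and 77.1 CPM in control libraries, overlapping, with a log2 fold change of -0.06 ± 0.08 (adjusted p = 0.56). The RPL22L1 to RPL22 count ratio was 2.09, 2.24 and 2.24 in exposed and 1.5, 1.69 and 1.57 in control libraries, without overlap. Both genes carry a pyrimidine run across the annotated start in the windows printed above.

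Of the other paralogs, RPL39L rose by a log2 fold change of 0.25 ± 0.09 (adjusted p = 0.022), a call lost in 5 of 18 planned refits, with 81.7, 68.5 and 76.3 CPM in exposed and 56.6, 71.8 and 62.4 CPM in control libraries, which overlap. Its partner RPL39 had a log2 fold change of 0.09 (adjusted p = 0.39), and the ratio of the pair overlapped between groups. RPL26L1, RPL36AL and RPS27L, a p53 target, did not pass, with log2 fold changes of -0.06, 0.09 and -0.19. RPL3L, known from striated muscle, and RPL10L, known from testis, averaged 1.01 and 0.371 CPM in exposed and 1.04 and 0.315 CPM in control libraries, and neither passed. The RPL36AL to RPL36A ratio was higher without overlap, but RPL36A itself was counted at 1.44 to 2.69 CPM in exposed and 2.44 to 2.73 CPM in control libraries.

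Levels of different genes were compared per kilobase of messenger RNA, using the median length of protein-coding transcripts. In the large subunit RPL7A, RPL8 and RPLP0 led with 5469 ± 371, 5203 ± 483 and 5121 ± 268 CPM per kb in exposed libraries and 4562 ± 340, 4132 ± 460 and 4530 ± 349 CPM per kb in control libraries. In each group these 3 lay within the sum of their SD values of one another. RPL41, the smallest ribosomal protein, had 4207 ± 355 CPM per kb in exposed and 3719 ± 325 in control libraries, and RPL35 had 3971 ± 416 in exposed and 3750 ± 302 in control libraries. These 2 did not differ beyond their SD values, and RPL41 was above RPL35 in exposed but not in control libraries. In the small subunit RPS2, RPS3 and RPS18 led with 5256 ± 318, 4831 ± 510 and 4471 ± 415 CPM per kb in exposed and 4352 ± 424, 4347 ± 369 and 3556 ± 296 CPM per kb in control libraries. RPS2 and RPS3 lay within the sum of their SD values in each group, and RPS2 and RPS18 did not.

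The low end held genes whose exons overlap other rows. RPS10 had 4.51 ± 0.60 CPM per kb in exposed and 4.84 ± 0.43 in control libraries, RPL17 had 3.40 ± 0.25 in exposed and 3.14 ± 0.39 in control libraries, and RPL36A had 3.02 ± 0.90 in exposed and 3.68 ± 0.24 in control libraries. The exons of RPS10 overlap RPS10-NUDT3 over 39.4% of their bases, those of RPL17 overlap other rows on the same strand over 32.7%, and those of RPL36A overlap RPL36A-HNRNPH2 over 8.40%. The read-through rows RPS10-NUDT3, RPL17-C18orf32 and RPL36A-HNRNPH2 themselves had 0 counts in all 6 libraries. On pseudogene rows lay 73.6% of the counts of the RPS10 family. The part of shared reads in these low levels was not tested, and the levels are uncertain.

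**Figure D4:**
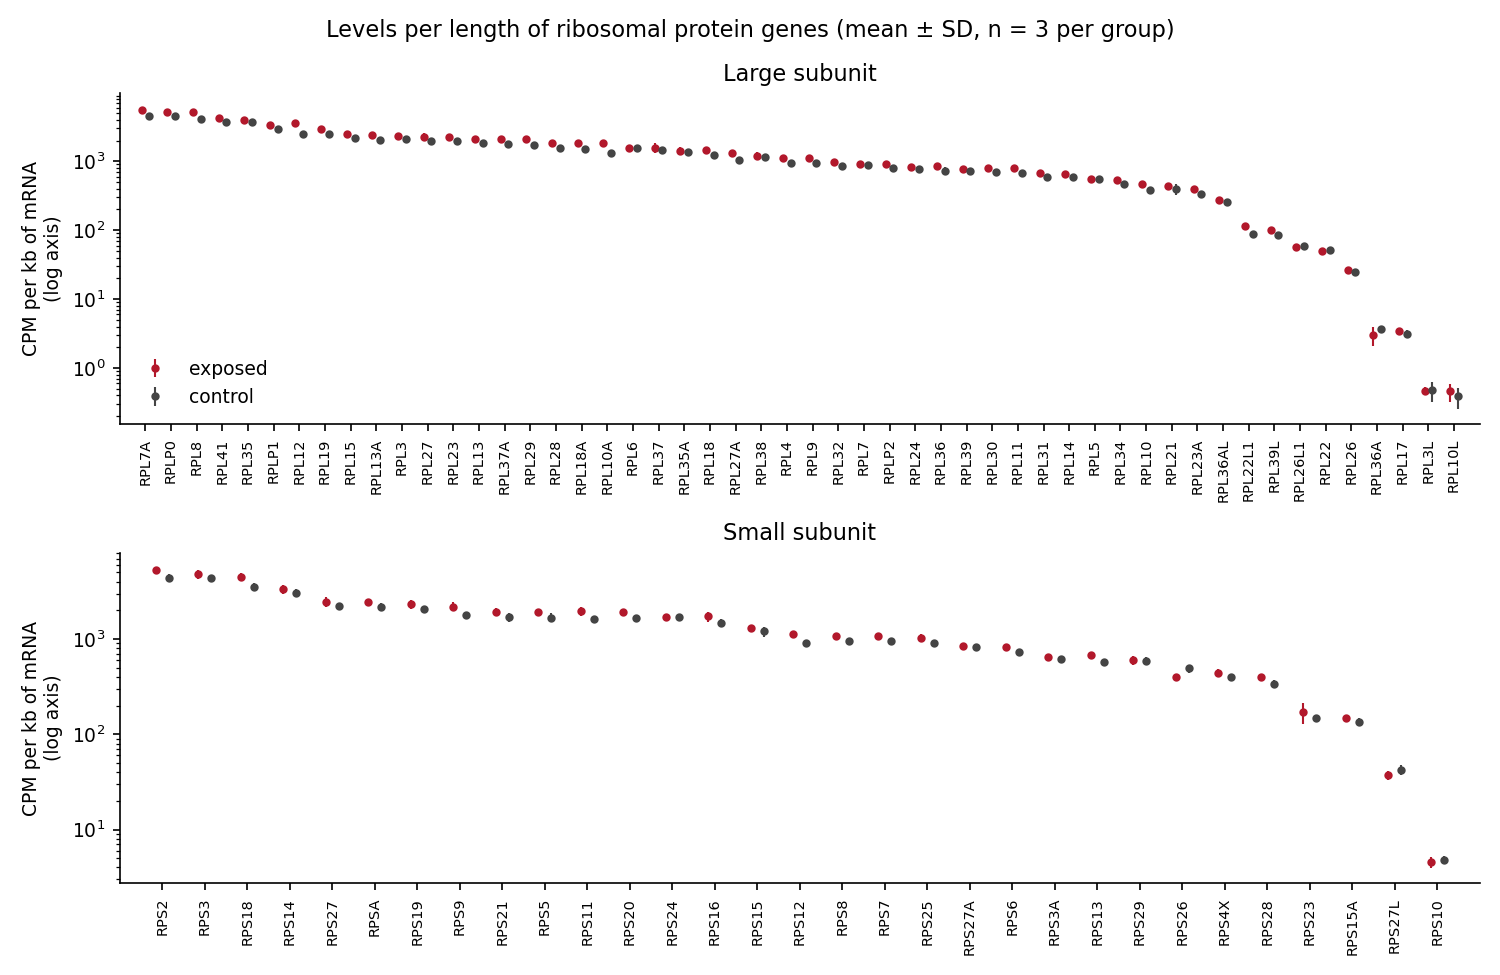
Mean CPM per kb of messenger RNA ± SD (n = 3 per group, log axis) in exposed (left point of each pair) and control libraries for the 52 large and 31 of 32 small subunit genes, ordered by level. The points run from RPL7A at 5469 CPM per kb in exposed libraries downward, and RPL26, RPL36A, RPL17, RPL3L, RPL10L, RPS27L and RPS10 lie far below.

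Processed pseudogenes, copies of messenger RNAs inserted in the genome, could take reads from near-identical parents. The table held 1149 rows named as ribosomal protein pseudogenes, of which 455 had any count and 111 were tested. Of these 111, 19 rose and 2 fell, where 21.8% of all genes tested rose and 22.1% fell. Their median log2 fold change was 0.20. The parents held nearly all counts of most families: for 60 of 76 parents under 5% of the family's counts lay on pseudogene rows, and for 4 over 20%, namely RPS10 (73.6%), RPL26 (27.1%), RPL10 (22.5%) and RPS2 (20.9%). RPS2P5 was the most counted, with 1131 ± 169 CPM in exposed and 994 ± 71.9 CPM in control libraries (log2 fold change 0.19, adjusted p = 0.1). With pseudogene counts added to the parents, the subunit medians were 0.20 and 0.17.

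Members of higher GC content had larger log2 fold changes. Over the 77 core genes, whose points share the same 6 libraries, Pearson's r between the log2 fold change and transcript GC was 0.41 (Spearman's rho 0.54), while over 17327 genes with a GC value it was 0.04. Of the 39 core genes at or above the median GC 23 rose, with a median of 0.23. Below the median GC 8 of 38 rose, with a median of 0.15, where 21.8% of all genes tested rose. Of 4 features examined in the core set, mean CPM had r = 0.57 (rho 0.44), gene length -0.12 (rho -0.16) and messenger RNA length 0.01 (rho 0.01). GC content and level were not separated. Correcting each library for GC content and gene length, an alternative added after seeing the data, left 55 members higher and 3 lower, where 27.6% of all genes rose.

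**Figure D5:**
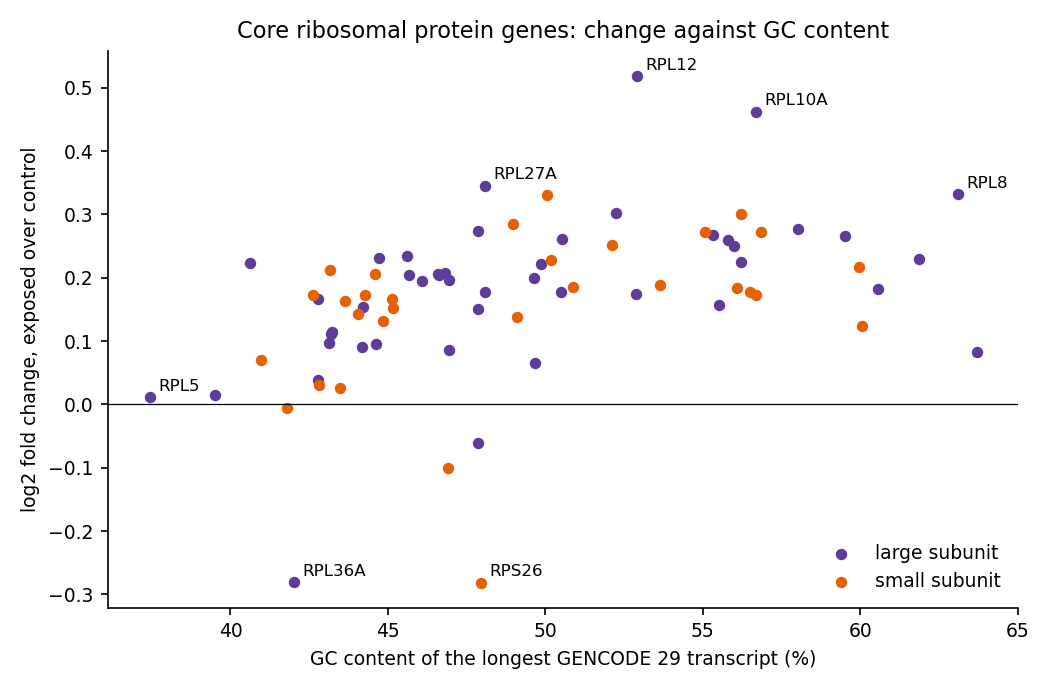
The log2 fold change (exposed over control) of 76 of the 77 core genes against the GC content of their longest GENCODE 29 transcript, in percent, by subunit. RPL12 and RPL10A stand above the others, and RPS26 and RPL36A stand below; RPL36A did not pass the threshold.

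A pyrimidine run at the first base was common across the core genes, called or not. Of 69 members with a RefSeq promoter, 62 were core genes. The read-through rows RPL17-C18orf32 and RPL36A-HNRNPH2 have the same windows as RPL17 and RPL36A. Motif counts and shares over the 69 members, unlike those over core genes, therefore repeat these windows. In 42 of these (67.7%) the annotated first base was itself a C followed by at least 4 C or T bases, against 4.04% of 27305 promoters. A first base that was a T, or had fewer than 4 such bases after it, was not counted. A run lay within 10 bases before to 31 after the start in 58 of 62 (93.5%), against 45.3% of all promoters. Of the 42 core genes with a run at the first base 16 rose and 0 fell, with a median log2 fold change of 0.18. Of the 20 without one 8 rose and 1 fell, with a median of 0.20. Beside these and the motif splits below, 21.8% of all genes tested rose and 22.1% fell. On both strands of the windows from 250 bases before to 50 after the start, GCGTG, the core of the site bound by the aryl hydrocarbon receptor, was found in 39 of 69 members (56.5%) and 36.3% of all promoters. Of the core genes with GCGTG 13 of 36 rose, and of those without it 11 of 26. CCGGAAG, an ETS-type motif, was found in 31.9% of members and 10.7% of all promoters, with 8 of 21 core genes rising with it and 16 of 41 without. CTTTC, searched on the gene's strand from 10 bases before to 31 after the start, where it can overlap the run, was found in 46.4% of members and 5.01% of all promoters, with 14 of 30 core genes rising with it and 10 of 32 without. Its longer form CTTTCC was found in 20 of 69 members and 1.79% of all promoters. CACGTG was found in 3 of 69 members (4.35%) and 7.43% of all promoters, and these 3 core genes rose, as did 21 of the 59 others. A YY1-type motif of 10 letters was found in 4.35% of members and 1.28% of all promoters, and a ZBTB33-type palindrome of 10 letters in 7.25% of members and 0.469% of all promoters. These were all 7 motifs searched, of which 4 were set against the calls beside the run, and a match is a description of the letters only.

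RACK1 and FAU are ribosomal proteins with names outside the pattern. RACK1, a scaffold on the small subunit head, rose by a log2 fold change of 0.22 ± 0.08 (adjusted p = 0.033), whereas FAU, made as a fusion with a ubiquitin-like protein, had 0.06 and did not pass.

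Of 22 other genes with TOP messenger RNAs, 21 were tested, 10 rose and 1 fell (52.4% called, against 43.9% of all genes), with a median log2 fold change of 0.17, and EEF1G was listed at 0 in every library. The largest were GAS5 and SNHG1, noncoding hosts of small nucleolar RNAs. GAS5 had 458, 454 and 520 CPM in exposed and 234, 254 and 207 CPM in control libraries (log2 fold change 1.04, adjusted p = 5.2e-12). SNHG1 averaged 106 ± 1.13 CPM in exposed and 55.6 ± 2.0 CPM in control libraries (0.93, adjusted p = 1.1e-11). EIF4A2, an RNA helicase of initiation, and EIF3F, an initiation factor subunit, rose by 0.68 and 0.33. NAP1L1, a histone chaperone, fell by 0.19 (adjusted p = 0.045).

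Of 15 tested escorts of single ribosomal proteins, 0 rose and 6 fell (HEATR3, GRWD1, IPO5, BCCIP, RPS19BP1 and IPO9; 40.0% called, against 43.9% of all genes), with a median of -0.08, and IPO4 was too low to test. HEATR3, which escorts RPL5, had 9.42, 7.11 and 8.01 CPM in exposed and 14.3, 13.2 and 16.8 CPM in control libraries. It fell by 0.85 on the log2 scale (adjusted p = 2.5e-06). GRWD1, which escorts RPL3, averaged 61.3 ± 3.28 CPM in exposed and 87.9 ± 12 CPM in control libraries (fell by 0.52, adjusted p = 1.2e-05). The importin IPO5 fell by 0.50 and BCCIP, a chaperone of RPL23, by 0.33, without overlap.

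Of 16 genes linking mTORC1 to these messenger RNAs, 5 rose and 4 fell (56.2% called, against 43.9% of all genes), with a median of 0.08. LARP1, the TOP tract binding protein, had 468, 543 and 481 CPM in exposed and 317, 297 and 320 CPM in control libraries (log2 fold change 0.68, adjusted p = 1.6e-08). EIF4EBP1, the translation repressor that mTORC1 inactivates, averaged 320 ± 20.1 CPM in exposed and 180 ± 24 CPM in control libraries (0.83, adjusted p = 1.0e-09). TSC1, a brake on mTORC1, and RHEB, its activator, rose by 0.86 and 0.78. MLST8 also rose, with a log2 fold change of 0.50. TSC2, AKT1S1, EIF4EBP2 and RPS6KB1 fell, with log2 fold changes of -0.26, -0.20, -0.42 and -0.38. The activity of the kinase was not tested.

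Of 15 genes of the ribosomal protein to p53 axis, 6 rose and 1 fell (46.7% called, near the 43.9% of all genes), with a median of 0.16. The p53 targets BBC3, SESN2 and ZMAT3 rose by log2 values of 1.47, 1.2 and 0.73. BBC3 averaged 51.8 ± 1.5 CPM in exposed and 18.7 ± 2.08 CPM in control libraries. MDM2 and CDKN1A did not pass, with -0.15 (adjusted p = 0.18) and 0.16 (adjusted p = 0.11). The nucleolar protein NCL fell by 0.58 (adjusted p = 2.3e-07).

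Of 21 genes of ribosome quality control, 6 rose and 3 fell (42.9% called, near the 43.9% of all genes), with a median of 0.01. GTPBP2, which acts on stalled ribosomes, had 211, 198 and 178 CPM in exposed and 78.7, 81.1 and 80.3 CPM in control libraries (log2 fold change 1.29, adjusted p = 6.1e-15). The rescue factor PELO rose by 0.69 and ZNF598, the ligase that marks collided ribosomes, by 0.64. G3BP1, a stress granule protein, fell by 0.72 (adjusted p = 5.5e-09).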

How the data were processed

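The authors deposited 1 table of whole-number read counts per gene for 6 T47D libraries, made against GRCh38 per the submitters' processing notes. Libraries were prepared with a NEBNext Ultra kit from TRIzol RNA and sequenced on an Illumina NovaSeq, per the labels' protocols. With aligner, counter, annotation release and strand setting not given in the sources used here, it is unknown how near-identical or overlapping genes shared their reads. The coordinates and lengths of all 58735 rows equal those of GENCODE 29, whose exons gave overlaps, messenger RNA lengths and GC content. Promoter windows came from a RefSeq table, which held 69 of 88 members. Total counts were 30970218 to 36878525, and 26945 rows had no count.

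Counts were tested with edgeR 4.0.16 in R 4.3.3: filterByExpr defaults (minimum count 10, minimum total 15), TMM scaling, robust quasi-likelihood fit over all 6 libraries, Benjamini-Hochberg adjustment over 17337 genes and a threshold of 0.05. The SE is the log2 fold change divided by the square root of F. CPM use TMM-scaled totals. The script was tested on simulated data. The members, lists, naming rule and alternatives were chosen with earlier results of these data known. Named members were the 12 largest rises and all falls past the threshold with a mean of at least 1 CPM, the 5 highest and 5 lowest levels per length of each subunit, the paralogs and their partners, and 12 fixed genes; of the other lists, the 4 smallest adjusted p, plus exceptions. Alternatives were RLE and upper-quartile factors, no filter, a minimum count of 50, DESeq2 1.42.0, limma-voom (limma 3.58.1), a replicate block, each library left out, protein-coding rows, no mitochondrial rows, scaling without ribosomal protein genes, a length correction, pseudogene counts added and a 1.2-fold minimum. GC correction, scaling to the core genes, messenger RNA length for levels and 2 trimmed subunit ratios were chosen after seeing the data. Some members and list genes are counted but not reported here by name.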

Additional observations from a re-analysis of the deposited data

How the results depend on the processing

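The count of 33 members called higher (24 large, 9 small subunit) changed by more than 1.5 times under several settings, and the cause was not tested. It was 15 (10 and 5) with upper-quartile factors and 15 (10 and 5) with a 1.2-fold minimum. Scaled to the core genes it was 6 (5 and 1), with subunit medians of 0.035 and 0.012. That scaling centres the core genes by construction, so its calls and signs are relative to the core set. The count was 50 (33 and 17) with the length correction and 55 (35 and 20) with the GC and length correction. DESeq2 called 14 small subunit genes. Leaving out 1 library gave 10 to 54 members higher (7 to 33 large, 3 to 21 small) and 1 to 4 lower, from 2 libraries in 1 group. Same-numbered libraries did not deviate together (r = -0.0740, -0.0804 and 0.00546 across genes), so the numbers are not taken to pair the samples; the fit with a replicate block called 14 (10 and 4), where 19.4% of all genes rose. The subunit medians were positive in every fit run. The large to small ratio difference was 0.0396, 0.0214 without the 3 largest rises of the large subunit and 0.0748 without the 5 largest of each. Of the members named, those whose sign changed were all uncalled. When scaled to the core genes, RPL17 was -0.041, RPL26 -0.063, RPL3 -0.0045, RPL35 -0.081, RPL36AL -0.082 and RPL39 -0.078. In the same scaling RPL5 was -0.15, RPS15A -0.027, RPS3 -0.011 and RPS4X -0.020. RPL5 was -0.031 with upper-quartile factors, RPL3L was 0.019 with limma-voom and 0.022 with the length correction, and RPL26L1 was 0.048 with that correction and 0.053 with GC added. RPS10 was 0.11 with pseudogene counts added and 0.011 with the GC and length correction. With 1 library left out, RPL26L1 ranged over -0.12 to 0.016, RPL3L over -0.20 to 0.25, RPL5 over -0.019 to 0.074 and RPS10 over -0.18 to 0.0031. Levels per length, pseudogene counts and the other lists were not refitted under these settings, other than levels on 2 lengths. By the table's own gene length RPL8 had 2386 ± 221 CPM per kb in exposed and 1895 ± 211 in control libraries, and RPL41 had 2258 ± 191 in exposed and 1996 ± 174 in control libraries, so RPL8 led the large subunit in exposed and RPL41 in control libraries.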
